A study of Mus musculus with 27 samples.

Results

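The genes described here are 33 genes known to rise in reactive astrocytes and in injured brain tissue, out of 26264 gene symbols in the deposited expression table. They were chosen from earlier results on these same libraries, among them the difference between the injected and the contralateral hemisphere, so their hemisphere values are a description and carry no test. The table writes symbols in lower case (gfap, vim, nes, serpina3n, hmox1), and each of the 33 names was found there once. RNA-seq was performed on cortical tissue of female 5xFAD/C57BL6 mice aged 16 weeks, 24 h after a stereotaxic microinjection into the parietal cortex of 1 hemisphere. Vehicle-treated mice received saline with cyclodextrin and DMSO, and the other groups received R33 or R55 at 10 mM in the same solution. R33 and R55 are thiophene thioureas described as pharmacological chaperones of the retromer, the endosomal sorting complex that contains VPS35. Every mouse carried the 5xFAD transgenes, which are expressed in neurons under a Thy1 promoter, and every mouse was injected, so no group is free of the transgenes or of surgery. A block of about 1 mm3 around the injection site and a block from the contralateral hemisphere, which was not injected, gave separate libraries. The 27 libraries used came from 4 vehicle, 5 R33 and 5 R55 mice, and 13 of the 14 mice had both blocks. Mouse AE, given R33, was represented by its injected block only.

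Astrocytes answer tissue damage by building more intermediate filaments, such as GFAP, vimentin and nestin, and by secreting protease inhibitors and acute phase proteins. A well known route to this state runs from cytokines of the interleukin 6 family and their gp130 receptors, including the oncostatin M receptor, through JAK kinases to the transcription factor STAT3, whose target SOCS3 feeds back to inhibit the receptor complex. Several genes of the list also belong to other cells of damaged brain: CD14 is a microglial and monocyte receptor, heme oxygenase 1 is strong in phagocytes that take up blood, and annexins and S100 proteins are abundant in meninges and vessels. In a bulk tissue block, more cells of a type and more RNA per cell cannot be told apart.

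Libraries held 15932196 to 38077026 fragments on genes, as recovered from the deposited values. Expression is given as FPKM, counted fragments scaled to gene length and library size, and differences are on the scale of log2(FPKM + 1), which understates changes of low genes. Neuronal markers summed to 2371 to 3566 FPKM in every library, and the 10 homeostatic astrocyte markers to 1147 to 2894 FPKM. Some libraries stood apart in markers of other cells. The injected block of R33 mouse AD had the highest summed level of the 9 fibroblast and leptomeningeal markers (115 FPKM, against 14.2 to 65.8 FPKM in the other injected blocks), and choroid plexus and ependymal markers exceeded 400 FPKM in the injected blocks of mice K and N and the contralateral blocks of mice J, K and O. Of the 5 red blood cell genes, the 4 globin genes were listed at 0 in every library. The fifth, Alas2, an enzyme of erythroid heme synthesis, was highest in the injected block of AD (8.17 FPKM, against 3.08 FPKM contralaterally), the block where Hmox1 was also highest. In AA and AB, Alas2 was lower in the injected block (2.99 against 3.63 FPKM and 4.03 against 5.71 FPKM), while Hmox1 was higher there. Alas2 was higher in the injected block of 6 of 13 mice. The log2 fold change of Alas2 for R55 against vehicle was 0.55 (SE 0.229, adjusted p = 0.557, limma). The part of blood in the listed genes was not tested. Mice also carried labels of 1 letter (9 mice, 3 per treatment) or 2 letters (vehicle AH, R33 AD and AE, R55 AA and AB). What the length of the label stands for is not given in the sources used here, and values for each kind are set out below.

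In the injected block the listed genes were mostly higher than in the contralateral block of the same mouse. The median within-mouse difference was above 0 for 32 of the 33 genes, the exception being Anxa1 at -0.0071, and the typical gene had a median difference of 0.18. Higher in at least 11 of 13 mice were 12 genes: Gfap, Vim, Tubb6, Serpina3n, Lcn2, A2m, Ptx3, Tnfrsf12a, Emp1, Stat3, Cebpd and Hmox1. Of the 28 listed genes that passed the expression filter (a mean of at least 1 FPKM), 11 met that criterion, beside 1.53% of all 12976 genes tested, but the list was built with this contrast in view and nothing is read from the excess. Emp1, among the 11, and Tgm1, among the 28, passed the filter only through their injected blocks. Their contralateral means were 0.808 and 0.13 FPKM, a limit on this count and on the hemisphere medians of the 28 genes. The limma fit across all genes gave a median log2 fold change of 0.29 for these 28 genes, beside 0.00097 for all tested genes. Without mouse AD that median was 0.23, and it was 0.15 in the mice with 1-letter labels and 0.66 in those with 2-letter labels. None of the 12976 genes tested was called between the hemispheres at an adjusted p-value under 0.05 (0% of tested genes called, smallest adjusted p = 0.359, limma), and 450 had an unadjusted p-value under 0.05. In the paired fit, with the mouse as a block, 0 were called as well (smallest adjusted p = 0.0969, limma) and 795 had an unadjusted p-value under 0.05. In the main fit, marker lists of other cells, with 0 genes called, differed in both directions. The median was 0.12 for fibroblasts and leptomeninges (6 of 8 above 0) and for neutrophils and monocytes (2 of 2). It was 0.088 for microglia (7 of 8) and 0.074 for oligodendrocytes (7 of 7). It was -0.12 for endothelium (1 of 7), -0.10 for oligodendrocyte precursors (0 of 3) and -0.097 for choroid plexus and ependyma (0 of 5). Within mice, the summed markers were higher in the injected block of 9 of 13 mice for microglia and 4 of 13 for oligodendrocytes. For oligodendrocytes the ratio between the blocks had a median of 0.936, against the direction of the fit, and was 3.17 in mouse L. The count was 7 of 13 for leptomeninges and for neutrophils and monocytes, the latter with a ratio of 4.45 in AD. It was 4 of 13 for endothelium and 5 of 13 for oligodendrocyte precursors and for choroid plexus. The part of these lists in the hemisphere values was not tested.

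Mice differed widely in this response. All 33 genes were higher in the injected block of AH (vehicle), AD (R33) and AB (R55), and 29 were higher in AA (R55). Vehicle mice J, L and M had 28, 27 and 27 genes higher, and R33 mice K, N and O had 20, 19 and 26. The R55 mice with 1-letter labels did not move together: 23 genes were higher in R, 14 in P and 6 in Q. In Q and P the median difference over the 33 genes was below 0, at -0.26 and -0.047, and the Gfap difference of Q was -0.83. The largest median belonged to AD, at 1.23. Over all tested genes the share higher in the injected block lay between 43.6% (Q) and 59.6% (R), and it was 57.9% in AD, 46.6% in AB and 45.2% in AA.

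**Figure D1:**
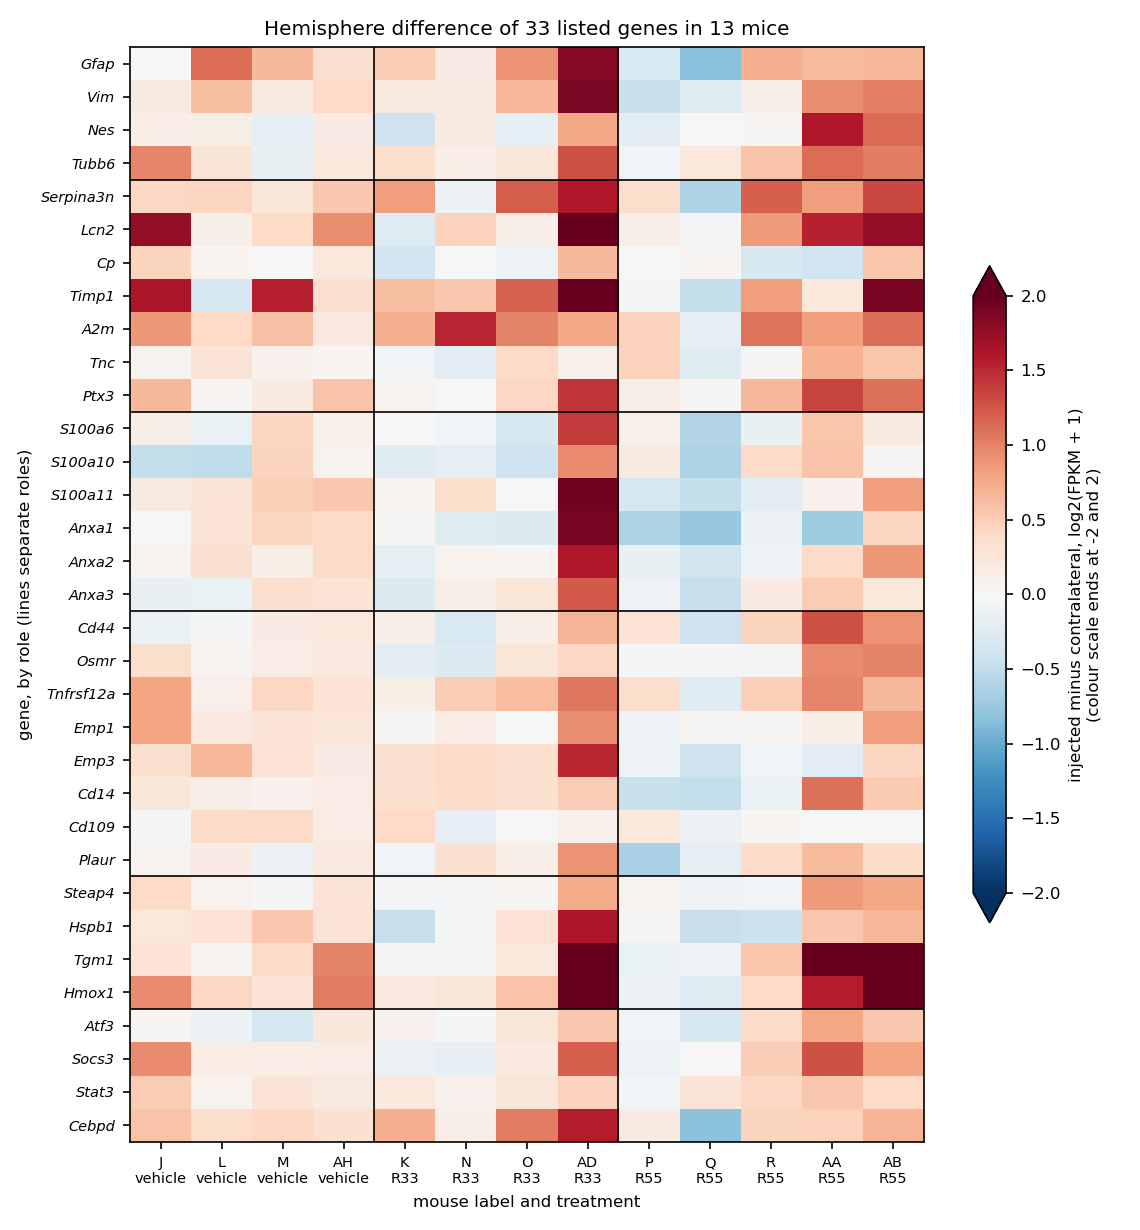
Heat map of the within-mouse difference between injected and contralateral block, in log2(FPKM + 1), for the 33 listed genes (rows, grouped by role) in 13 mice (columns, grouped by treatment; colours end at -2 and 2). AD and AB are red in every row, AH is mostly pale red, and Q is blue in 27 of 33 rows.

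The filament and tubulin genes were led by Gfap, the astrocytic intermediate filament and the most abundant listed gene at a mean of 266 FPKM (chr11:102778159-102791738, GRCm39, minus strand). Gfap stood at 304, 74.7, 219 and 209.8 FPKM in the contralateral block of vehicle mice J, L, M and AH and at 306, 164, 345 and 263 FPKM in their injected block. After R33 the Gfap level was 133, 222, 227 and 176 FPKM in the contralateral block of mice K, N, O and AD and 188, 249, 425, 626 and 491 FPKM in the injected block of mice K, N, O, AD and AE. After R55 the Gfap level was 152, 253, 177, 357 and 197 FPKM contralaterally and 124, 142, 292, 554 and 314 FPKM in the injected block of mice P, Q, R, AA and AB. The contralateral levels of Gfap alone ranged from 74.7 to 357 FPKM, so contralateral blocks of some mice exceeded injected blocks of others. The median difference was 0.63, from -0.83 in Q to 1.82 in AD, and 11 of 13 mice were higher in the injected block, P and Q being lower. Vim, the filament protein vimentin of astrocytes and many mesenchymal cells, followed Gfap. Vim stood at 33.7, 18.5, 37.7 and 24.1 FPKM in the contralateral block of vehicle mice J, L, M and AH and at 38.3, 28.6, 42.9 and 32.2 FPKM in their injected block. After R33 the Vim level was 25.4, 29.3, 37.8 and 26.01 FPKM in the contralateral block of mice K, N, O and AD and 28.9, 33.3, 60.2, 98.3 and 55.2 FPKM in the injected block of mice K, N, O, AD and AE. After R55 the Vim level was 31.2, 47.5, 32.8, 43.7 and 28.5 FPKM contralaterally and 22.7, 39.6, 36.1, 84.1 and 58.5 FPKM in the injected block of mice P, Q, R, AA and AB. Its injected block was higher in 11 of 13 mice, with a median difference of 0.18, and the 3 highest blocks (AD, AA and O) were all injected ones. Tubb6, a beta-tubulin isotype, was higher in 11 of 13 mice by a median of 0.25. Tubb6 stood at 2.29, 2.67, 3.20 and 3.61 FPKM in the contralateral block of vehicle mice J, L, M and AH and at 5.45, 3.37, 2.79 and 4.32 FPKM in their injected block. After R33 the Tubb6 level was 2.49, 2.87, 3.58 and 2.99 FPKM in the contralateral block of mice K, N, O and AD and 3.46, 3.26, 4.35, 8.60 and 5.46 FPKM in the injected block of mice K, N, O, AD and AE. After R55 the Tubb6 level was 2.98, 2.80, 3.42, 3.62 and 2.84 FPKM contralaterally and 2.85, 3.40, 5.57, 9.03 and 6.77 FPKM in the injected block of mice P, Q, R, AA and AB. All contralateral blocks lay within 2.29 to 3.62 FPKM, and M and P were the mice with a lower injected block. Nes, nestin, which marks progenitors and reactive glia, ranged from 1.15 to 5.55 FPKM and was higher in only 8 of 13 mice. In AA, Nes went from the lowest level of all libraries contralaterally (1.15 FPKM) to the highest in the injected block (5.55 FPKM).

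**Figure D2:**
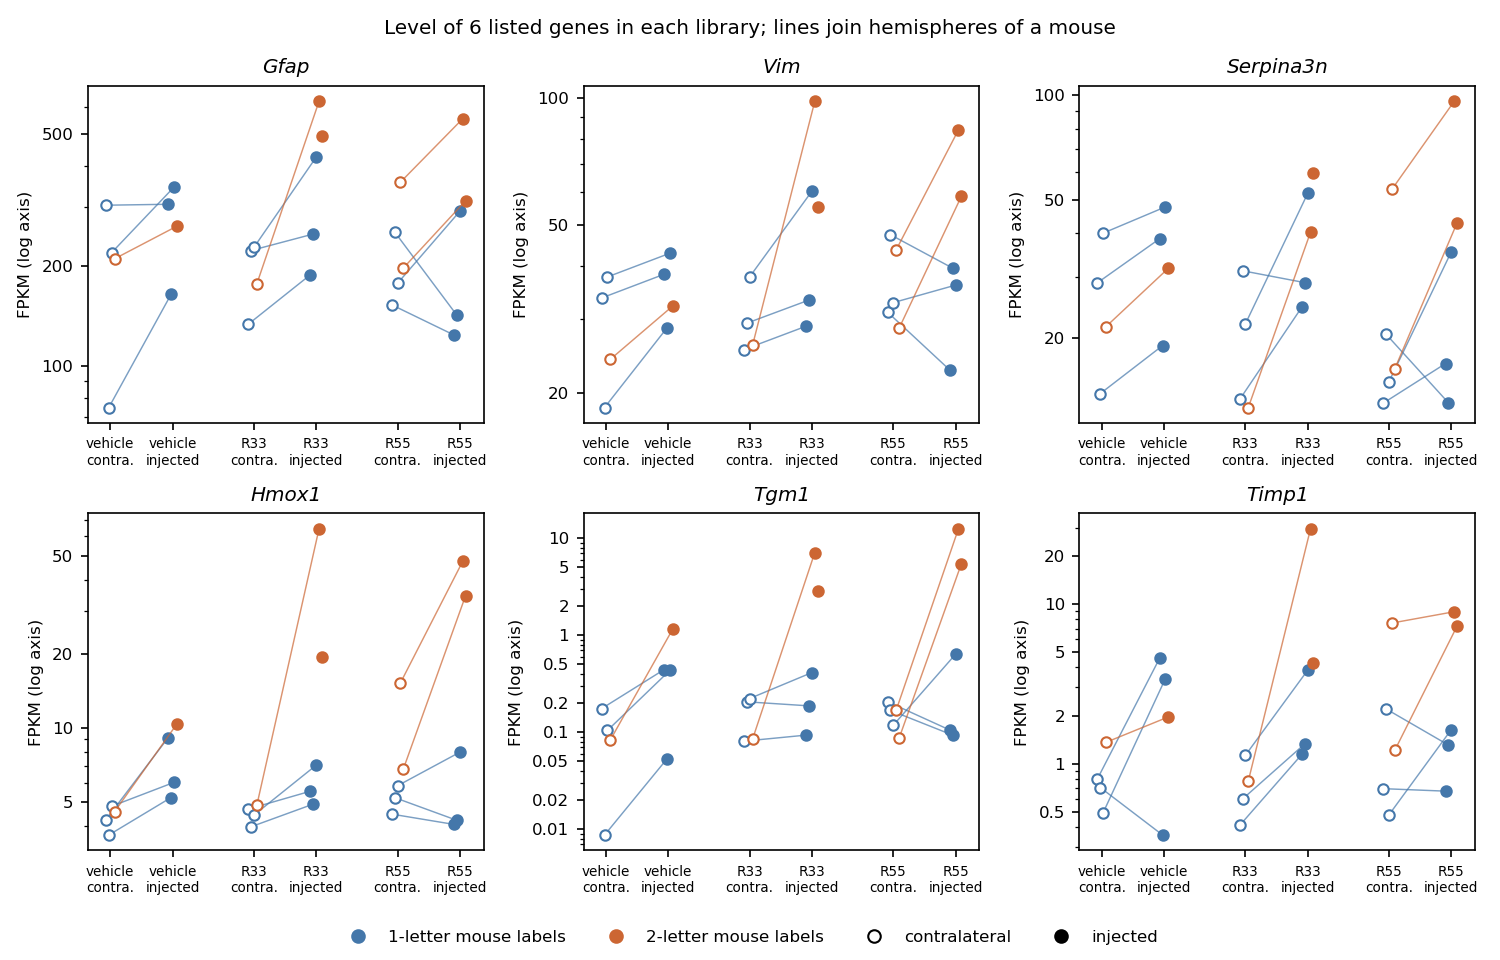
FPKM (log axis) of Gfap, Vim, Serpina3n, Hmox1, Tgm1 and Timp1 in each of the 27 libraries, by treatment and block. Open points are contralateral, filled points injected, lines join the blocks of a mouse and colour gives the length of the mouse label. For Tgm1 and Hmox1 every filled orange point (2-letter labels) lies above every filled blue one, whatever the treatment.

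Among the secreted proteins, A2m and Ptx3 were higher in the injected block of 12 of 13 mice and Serpina3n and Lcn2 in 11. Serpina3n, an inhibitor of serine proteases and a marker of reactive astrocytes, was higher in 11 of 13 mice by a median of 0.54. Serpina3n stood at 28.8, 13.8, 40.04 and 21.5 FPKM in the contralateral block of vehicle mice J, L, M and AH and at 38.6, 18.98, 47.7 and 31.7 FPKM in their injected block. After R33 the Serpina3n level was 13.3, 31.2, 21.9 and 12.6 FPKM in the contralateral block of mice K, N, O and AD and 24.5, 28.8, 52.1, 40.3 and 59.7 FPKM in the injected block of mice K, N, O, AD and AE. After R55 the Serpina3n level was 12.96, 20.4, 14.95, 53.5 and 16.3 FPKM contralaterally and 16.8, 12.98, 35.4, 96.01 and 42.8 FPKM in the injected block of mice P, Q, R, AA and AB. N and Q were the mice that went down, and AA was the highest of all mice in both of its blocks. A2m, alpha-2-macroglobulin, a broad protease inhibitor, was higher in 12 of 13 mice. On the log2(FPKM + 1) scale, which understates changes of low genes, it had the largest median difference of the list, 0.75. A2m stood at 2.92, 0.68, 0.779 and 1.25 FPKM in the contralateral block of vehicle mice J, L, M and AH and at 6.16, 1.21, 1.68 and 1.57 FPKM in their injected block. After R33 the A2m level was 1.20, 0.921, 1.46 and 0.452 FPKM in the contralateral block of mice K, N, O and AD and 2.60, 4.50, 3.92, 1.45 and 2.33 FPKM in the injected block of mice K, N, O, AD and AE. After R55 the A2m level was 0.838, 0.817, 0.927, 1.40 and 0.446 FPKM contralaterally and 1.54, 0.618, 3.10, 3.22 and 2.14 FPKM in the injected block of mice P, Q, R, AA and AB. Q alone was lower, and A2m is among the few listed genes that differed alike in mice with 1-letter labels (median 0.71) and 2-letter labels (0.78). Its spread between mice stayed large, since vehicle mouse J exceeded the injected block of every other vehicle mouse even contralaterally.

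Lcn2, lipocalin 2, an acute phase protein that binds iron-carrying siderophores, and Timp1, an inhibitor of matrix metalloproteinases, had the widest ranges of the secreted group on the log2(FPKM + 1) scale of within-mouse differences. Lcn2 stood at 1.72, 0.677, 1.99 and 2.30 FPKM in the contralateral block of vehicle mice J, L, M and AH and at 8.21, 0.82, 2.94 and 5.30 FPKM in their injected block. After R33 the Lcn2 level was 1.68, 4.32, 5.10 and 0.854 FPKM in the contralateral block of mice K, N, O and AD and 1.23, 6.34, 5.69, 26.5 and 8.21 FPKM in the injected block of mice K, N, O, AD and AE. After R55 the Lcn2 level was 1.18, 2.74, 1.46, 6.18 and 2.31 FPKM contralaterally and 1.40, 2.68, 3.45, 19.9 and 10.1 FPKM in the injected block of mice P, Q, R, AA and AB. AD went from the second lowest contralateral level to the highest of all libraries, a ratio of 31.0 between its blocks, while the ratio was 4.77 in J, 4.39 in AB and 3.22 in AA. Timp1 stood at 0.804, 0.708, 0.494 and 1.36 FPKM in the contralateral block of vehicle mice J, L, M and AH and at 4.57, 0.357, 3.41 and 1.96 FPKM in their injected block. After R33 the Timp1 level was 0.41, 0.6, 1.13 and 0.778 FPKM in the contralateral block of mice K, N, O and AD and 1.14, 1.33, 3.84, 29.5 and 4.29 FPKM in the injected block of mice K, N, O, AD and AE. After R55 the Timp1 level was 0.697, 2.20, 0.479, 7.58 and 1.21 FPKM contralaterally and 0.672, 1.31, 1.63, 8.93 and 7.25 FPKM in the injected block of mice P, Q, R, AA and AB. In AD the ratio of Timp1 between the blocks was 37.9, over 19 fragments contralaterally and 773 in the injected block. In AA, in contrast, Timp1 was already at 7.58 FPKM contralaterally and the ratio was 1.18. The median difference of Timp1 was 0.60 (10 of 13 mice higher) and that of Lcn2 0.47 (11 of 13). Ptx3, a pattern recognition protein of innate immunity, lay below the filter, with 1 fragment in its lowest library, and was higher in 12 of 13 mice. Ptx3 stood at 0.313, 0.082, 0.686 and 0.0217 FPKM in the contralateral block of vehicle mice J, L, M and AH and at 1.07, 0.116, 0.902 and 0.515 FPKM in their injected block. After R33 the Ptx3 level was 0.158, 0.132, 0.193 and 0.0758 FPKM in the contralateral block of mice K, N, O and AD and 0.201, 0.123, 0.593, 1.91 and 1.72 FPKM in the injected block of mice K, N, O, AD and AE. After R55 the Ptx3 level was 0.121, 0.131, 0.0924, 0.203 and 0.193 FPKM contralaterally and 0.22, 0.146, 0.719, 2.08 and 1.56 FPKM in the injected block of mice P, Q, R, AA and AB. The injected blocks of AA, AD, AE and AB were the highest, and N alone was lower. Cp, ceruloplasmin, a copper-binding ferroxidase, stayed within 1.98 to 4.38 FPKM and was higher in 8 of 13. Tnc, the matrix protein tenascin C, was also below the filter (0.193 to 1.36 FPKM) and higher in 10 of 13.

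The S100 proteins and annexins, small calcium-binding proteins and calcium-dependent membrane-binding proteins, were the group with the least steady difference between the blocks. S100a10, the binding partner of annexin A2, was abundant at a mean of 32.9 FPKM and was higher in the injected block of 7 of 13 mice, with a median difference of 0.017. S100a10 stood at 47.2, 36.8, 19.02 and 24.5 FPKM in the contralateral block of vehicle mice J, L, M and AH and at 33.6, 25.7, 26.2 and 25.8 FPKM in their injected block. After R33 the S100a10 level was 28.02, 30.6, 29.8 and 40.5 FPKM in the contralateral block of mice K, N, O and AD and 23.7, 27.03, 22.02, 78.9 and 21.9 FPKM in the injected block of mice K, N, O, AD and AE. After R55 the S100a10 level was 24.5, 50.7, 21.4, 32.2 and 39.6 FPKM contralaterally and 27.9, 32.7, 28.3, 48.2 and 40.1 FPKM in the injected block of mice P, Q, R, AA and AB. The injected block of AD stood alone at 78.9 FPKM, whereas J, L, K, N, O and Q were lower in the injected block. S100a6 stood at 18.6, 18.7, 17.8 and 20.4 FPKM in the contralateral block of vehicle mice J, L, M and AH and at 20.2, 16.9, 24.2 and 22.05 FPKM in their injected block. After R33 the S100a6 level was 16.9, 19.04, 23.1 and 19.8 FPKM in the contralateral block of mice K, N, O and AD and 16.8, 18.3, 18.3, 53.8 and 24.8 FPKM in the injected block of mice K, N, O, AD and AE. After R55 the S100a6 level was 15.3, 30.1, 24.1, 21.5 and 24.2 FPKM contralaterally and 16.4, 19.8, 21.6, 31.99 and 27.7 FPKM in the injected block of mice P, Q, R, AA and AB. The injected block of AD was far above the rest, and the contralateral block of Q was higher than its injected one. S100a11 ranged from 1.98 to 23.2 FPKM, and both S100a6 and S100a11 were highest in the injected block of AD. They were higher in 7 and 10 of 13 mice. Anxa1, whose product is an anti-inflammatory annexin, was the only listed gene with a median difference below 0. Anxa1 stood at 1.62, 0.395, 0.585 and 0.718 FPKM in the contralateral block of vehicle mice J, L, M and AH and at 1.61, 0.661, 1.14 and 1.25 FPKM in their injected block. After R33 the Anxa1 level was 1.05, 1.17, 1.28 and 1.72 FPKM in the contralateral block of mice K, N, O and AD and 1.08, 0.827, 0.888, 9.20 and 2.34 FPKM in the injected block of mice K, N, O, AD and AE. After R55 the Anxa1 level was 2.06, 3.21, 0.891, 3.24 and 1.999 FPKM contralaterally and 0.984, 1.49, 0.737, 1.58 and 3.05 FPKM in the injected block of mice P, Q, R, AA and AB. Its level in AD went from 1.72 to 9.20 FPKM, whereas Q, AA and P went from 3.21, 3.24 and 2.06 FPKM to 1.495, 1.58 and 0.984 FPKM. Anxa2 reached 30.7 FPKM and Anxa3 29.8 FPKM in the injected block of AD, where no other library exceeded 17.1 and 22.2 FPKM. Those 2 genes were higher in 9 and 8 of 13 mice.

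Of the surface proteins, the TWEAK receptor gene Tnfrsf12a was the steadiest. It was higher in the injected block of 12 of 13 mice, Q being the exception, by a median of 0.48. Tnfrsf12a stood at 2.26, 3.05, 2.34 and 2.55 FPKM in the contralateral block of vehicle mice J, L, M and AH and at 4.64, 3.36, 3.44 and 3.29 FPKM in their injected block. After R33 the Tnfrsf12a level was 3.47, 2.13, 2.16 and 3.13 FPKM in the contralateral block of mice K, N, O and AD and 3.86, 3.40, 3.85, 7.56 and 3.55 FPKM in the injected block of mice K, N, O, AD and AE. After R55 the Tnfrsf12a level was 2.49, 3.40, 3.496, 3.44 and 3.24 FPKM contralaterally and 3.47, 2.66, 5.25, 7.76 and 5.67 FPKM in the injected block of mice P, Q, R, AA and AB. Its contralateral levels were narrow, and the injected blocks of AA and AD exceeded all others. Emp1, a tetraspan epithelial membrane protein, was higher in 11 of 13 mice but by a median of 0.14 only. Emp1 stood at 0.68, 0.397, 0.783 and 0.603 FPKM in the contralateral block of vehicle mice J, L, M and AH and at 1.92, 0.595, 1.14 and 0.898 FPKM in their injected block. After R33 the Emp1 level was 0.739, 0.794, 1.01 and 0.694 FPKM in the contralateral block of mice K, N, O and AD and 0.761, 0.981, 0.992, 2.22 and 1.16 FPKM in the injected block of mice K, N, O, AD and AE. After R55 the Emp1 level was 0.662, 0.89, 0.968, 1.56 and 0.72 FPKM contralaterally and 0.566, 0.921, 0.989, 1.82 and 2.07 FPKM in the injected block of mice P, Q, R, AA and AB. AD, AB, J and AA had the highest injected blocks, and O and P were lower there. Its relative Emp3 reached 10.4 FPKM in the injected block of AD, against 1.13 to 4.98 FPKM elsewhere. Osmr, the oncostatin M receptor, was higher in 8 of 13 mice, and its difference was 0.69 at the median of the 2-letter mice and -0.019 at that of the 1-letter mice. Plaur, the urokinase receptor, ranged from 0.467 to 3.501 FPKM. Cd14, the co-receptor for bacterial lipopolysaccharide, was 1 of the genes also known from microglia. Cd14 stood at 5.73, 3.67, 4.23 and 6.58 FPKM in the contralateral block of vehicle mice J, L, M and AH and at 6.90, 4.10, 4.55 and 7.44 FPKM in their injected block. After R33 the Cd14 level was 2.82, 3.91, 5.44 and 5.24 FPKM in the contralateral block of mice K, N, O and AD and 3.76, 5.34, 7.07, 7.83 and 7.29 FPKM in the injected block of mice K, N, O, AD and AE. After R55 the Cd14 level was 3.78, 4.33, 6.82, 5.90 and 6.07 FPKM contralaterally and 2.50, 2.78, 6.17, 13.8 and 9.11 FPKM in the injected block of mice P, Q, R, AA and AB. The injected blocks of all 5 mice with 2-letter labels were above those of all 9 mice with 1-letter labels. Cd44, the hyaluronan receptor (0.322 to 3.13 FPKM), and Cd109, a membrane-anchored protein (0.0605 to 0.905 FPKM), were below the filter, and Cd109 was the listed gene least like the others.

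The signalling genes had a median log2 fold change of 0.34 between the hemispheres, with 4 of 4 above 0. Stat3, the transcription factor at the end of the gp130 route, was higher in the injected block of 12 of 13 mice, P being the exception. Stat3 stood at 13.2, 14.5, 15.01 and 15.05 FPKM in the contralateral block of vehicle mice J, L, M and AH and at 19.2, 15.2, 18.2 and 17.3 FPKM in their injected block. After R33 the Stat3 level was 12.8, 14.5, 15.8 and 13.1 FPKM in the contralateral block of mice K, N, O and AD and 14.9, 15.4, 18.8, 18.4 and 19.8 FPKM in the injected block of mice K, N, O, AD and AE. After R55 the Stat3 level was 14.1, 12.1, 15.6, 16.1 and 15.1 FPKM contralaterally and 13.6, 14.6, 21.2, 23.9 and 20.2 FPKM in the injected block of mice P, Q, R, AA and AB. Its median difference was only 0.26, but its contralateral levels were so even (12.1 to 16.1 FPKM) that 9 injected blocks exceeded all of them. Socs3, the feedback inhibitor of that route, ranged from 0.956 to 4.90 FPKM and was higher in 10 of 13 mice, with AD (4.90 FPKM), AA (4.58 FPKM) and J (3.97 FPKM) at the top. Cebpd, a transcription factor of the acute phase response, was higher in 12 of 13 mice by a median of 0.45, with Q the exception at -0.82. Cebpd stood at 4.75, 1.79, 5.97 and 2.10 FPKM in the contralateral block of vehicle mice J, L, M and AH and at 7.57, 2.58, 8.25 and 2.84 FPKM in their injected block. After R33 the Cebpd level was 1.84, 2.66, 2.99 and 2.63 FPKM in the contralateral block of mice K, N, O and AD and 3.73, 3.04, 7.21, 9.75 and 6.44 FPKM in the injected block of mice K, N, O, AD and AE. After R55 the Cebpd level was 2.76, 5.86, 2.75, 5.47 and 2.81 FPKM contralaterally and 3.24, 2.87, 4.11, 7.86 and 5.12 FPKM in the injected block of mice P, Q, R, AA and AB. The contralateral blocks of M, Q, AA and J already exceeded the injected blocks of AH, K, L, N, P, Q and R. Atf3, a stress-induced transcription factor, was at 0.757 to 3.32 FPKM and higher in 8 of 13.

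Because Stat3 and its target Socs3 are both on the list, the promoters of the listed genes were searched for the STAT motif TTCNNNGAA. RefSeq promoter windows (250 bases before to 50 bases after the start site) were at hand for 25 of the 33 genes, 30 windows in all. The motif, which reads the same on both strands, was present in 5 of these windows (16.7%), those of Gfap, Socs3, Tgm1, Emp1 and Steap4, and in 8.3% of all 32851 windows. The AP-1 motif TGANTCA was present in 6 of 30 windows (20%; Anxa2, Cp, Emp1, Osmr, Plaur and S100a11) against 7.81% of all, and the antioxidant response core TGACNNNGC, searched on both strands, in 2 (6.67%; Emp1 and Nes) against 12.4%. In Emp1 a STAT match and an AP-1 match overlap near the start site. These are matches of letters in a short window and do not show that a factor binds. The 3 windows below are shown because Gfap is the most abundant listed gene, Socs3 is the known STAT3 target and Tgm1 has the largest ratio between the blocks of a mouse. Each is written from 5′ to 3′ on the gene's strand with the STAT motif in capitals, and each was placed on GRCm39 by exact match of the RefSeq sequence (table built on GRCm38.p6). The windows lie on the minus strand at chr11:102787977-102788276 (Gfap), chr11:117860143-117860442 (Socs3) and chr14:55950900-55951199 (Tgm1). The match begins 2 bases before the start site in Gfap, 154 bases before it in Socs3, and 173 and 64 bases before it in Tgm1.
Gfap: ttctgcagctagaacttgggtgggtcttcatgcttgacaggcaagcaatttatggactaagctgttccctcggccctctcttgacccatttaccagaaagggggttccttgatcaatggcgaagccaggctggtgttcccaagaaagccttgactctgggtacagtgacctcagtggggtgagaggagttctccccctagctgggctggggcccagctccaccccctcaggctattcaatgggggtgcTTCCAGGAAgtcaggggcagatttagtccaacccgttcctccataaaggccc
Socs3: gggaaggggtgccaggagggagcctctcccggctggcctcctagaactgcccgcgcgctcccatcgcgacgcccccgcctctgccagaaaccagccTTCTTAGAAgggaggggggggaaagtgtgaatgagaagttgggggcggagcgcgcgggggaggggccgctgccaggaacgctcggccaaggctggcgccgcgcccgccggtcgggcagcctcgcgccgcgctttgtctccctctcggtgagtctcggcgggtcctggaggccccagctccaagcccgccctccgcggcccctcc
Tgm1: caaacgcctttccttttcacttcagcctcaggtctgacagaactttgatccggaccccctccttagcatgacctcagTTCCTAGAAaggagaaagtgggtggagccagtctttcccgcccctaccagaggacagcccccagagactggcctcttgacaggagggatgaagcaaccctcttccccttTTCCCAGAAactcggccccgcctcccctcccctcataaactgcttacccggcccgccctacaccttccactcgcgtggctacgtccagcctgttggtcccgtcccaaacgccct

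The enzymes and stress proteins included Hmox1 and Tgm1, whose levels in some injected blocks stood far above those of the contralateral blocks. Hmox1, heme oxygenase 1, which breaks down heme (chr8:75820241-75827217, plus strand), was nearly flat contralaterally except in AA. Hmox1 stood at 4.25, 3.68, 4.82 and 4.58 FPKM in the contralateral block of vehicle mice J, L, M and AH and at 9.15, 5.23, 6.02 and 10.4 FPKM in their injected block. After R33 the Hmox1 level was 4.69, 3.98, 4.43 and 4.86 FPKM in the contralateral block of mice K, N, O and AD and 5.55, 4.92, 7.07, 64.4 and 19.5 FPKM in the injected block of mice K, N, O, AD and AE. After R55 the Hmox1 level was 4.48, 5.22, 5.84, 15.3 and 6.82 FPKM contralaterally and 4.07, 4.22, 7.98, 47.5 and 34.4 FPKM in the injected block of mice P, Q, R, AA and AB. The ratio between the blocks was 13.3 in AD, 5.05 in AB, 3.11 in AA and 2.27 in AH, and among mice with 1-letter labels it was highest in J, at 2.15. P and Q were lower in the injected block. Tgm1, transglutaminase 1, which cross-links proteins (chr14:55937466-55951383, minus strand, the promoter window above lying inside it), was close to absent contralaterally, with 1 to 22 fragments per library. Tgm1 stood at 0.175, 0.00874, 0.104 and 0.0833 FPKM in the contralateral block of vehicle mice J, L, M and AH and at 0.441, 0.0529, 0.433 and 1.15 FPKM in their injected block. After R33 the Tgm1 level was 0.0809, 0.206, 0.223 and 0.0849 FPKM in the contralateral block of mice K, N, O and AD and 0.0934, 0.187, 0.412, 7.09 and 2.87 FPKM in the injected block of mice K, N, O, AD and AE. After R55 the Tgm1 level was 0.206, 0.168, 0.118, 0.169 and 0.0866 FPKM contralaterally and 0.105, 0.0934, 0.637, 12.5 and 5.41 FPKM in the injected block of mice P, Q, R, AA and AB. Ratios between the blocks were 83.6 in AD, 73.9 in AA, 62.5 in AB and 13.8 in AH, each over 6 to 13 contralateral fragments, whereas no injected block of a mouse with a 1-letter label exceeded 0.637 FPKM. Hspb1, a small heat shock protein, ranged from 1.98 to 9.96 FPKM and was higher in 9 of 13 mice. Steap4, a metalloreductase below the filter, reached 1.36 FPKM in AA, 0.852 FPKM in AB and 0.811 FPKM in AD, against at most 0.583 FPKM in every other library.

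The length of the mouse label separated some of these genes more sharply than treatment did. In the injected blocks, Cd14 and Hmox1 were higher in all 5 mice with 2-letter labels than in all 9 with 1-letter labels, and 1.55% of tested genes were separated in that direction. Tgm1 was separated too, but it passed the expression filter only through its level in the 2-letter injected blocks, so it is not set against that share. Hmox1 measured 35.2 ± 21.6 FPKM in the former (SD, n = 5) and 6.02 ± 1.73 FPKM in the latter (SD, n = 9), and Tgm1 5.80 ± 4.37 and 0.273 ± 0.210 FPKM. Contralaterally no listed gene was separated in that way (0.516% of tested genes were). For the difference between the blocks, Anxa2 and Hmox1 were separated (and Tgm1, with the same limit), beside 0.331% of tested genes. Of the 33 listed genes, 29 were higher in the injected block in all 4 mice with 2-letter labels and both blocks. Of all tested genes 7.62% were, but the list includes genes below the filter and was chosen on this difference, so nothing is read from the excess. Except for Emp3, the median difference between the blocks was larger in mice with 2-letter labels for every listed gene. In mice with 1-letter and 2-letter labels it was -0.0085 and 0.95 for Nes, 0.18 and 0.97 for Vim, 0.41 and 1.09 for Serpina3n, 0.14 and 1.65 for Lcn2, 0.14 and 0.998 for Socs3, and -0.24 and 0.32 for S100a10. For Gfap it was 0.49 and 0.65, and for Stat3 0.24 and 0.43. These counts were made after the values were seen, and the vehicle group has 1 mouse with a 2-letter label, AH, which had the smallest Tgm1 and Hmox1 levels of the 5 mice. Within that set, the vehicle treatment and mouse AH cannot be told apart.

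R55 against vehicle gave no call among the listed genes. In the limma fit over all 27 libraries, 0 of 28 listed genes were called at an adjusted p-value under 0.05 (0.00771% of tested genes called), and 0 of 28 had an unadjusted p-value under 0.05 (8.45% of tested genes). With the correlation of blocks of a mouse modelled, 519 of all tested genes had an unadjusted p-value under 0.05 in place of 1096, and 0 of 28 listed genes. With voom on the recovered fragments, and likewise with a pseudocount of 0.1, Anxa1 alone had an unadjusted p-value under 0.05. The median log2 fold change of the listed genes was 0.19, beside 0.026 for all tested genes, and 24 of 28 were above 0. The S100 proteins and annexins had a median of 0.29 with 6 of 6 above 0, and the signalling genes a median of 0.043. Marker lists of other cells, with 0 genes called, differed in both directions in the same contrast. The fibroblast and leptomeningeal list had a median of 0.43 with 8 of 8 tested genes above 0 and 2 at an unadjusted p-value under 0.05, the oligodendrocyte list 0.15 with 7 of 7 above 0, and the homeostatic astrocyte list 0.16 with 8 of 10 above 0. The endothelial list had a median of -0.12 with 1 of 7 above 0, the choroid plexus and ependymal list -0.13 with 1 of 5, the oligodendrocyte precursor list -0.096 with 0 of 3 and the mural list -0.048 with 2 of 6. The microglial list had a median of 0.069 with 7 of 8 above 0. The neutrophil and monocyte list stood at 0.35 with 2 of 2 tested genes above 0, and the border macrophage list at 0.49 with 1 of 1. The part of these lists in the R55 values was not tested. The smallest p-value was that of Anxa1, at a log2 fold change of 0.51 (SE 0.257, adjusted p = 0.589, limma), followed by Tnfrsf12a at 0.27 (SE 0.136, adjusted p = 0.589) and S100a11 at 0.57 (SE 0.305, adjusted p = 0.598). The largest fold change was that of Hmox1, 0.61 with a 95% interval from -0.26 to 1.47. Gfap differed by 0.093 (95% interval from -0.51 to 0.70), so these mice leave room for a change of Gfap in either direction. Among the other abundant or steady genes, the R55 value was 0.35 for Vim (SE 0.219), 0.21 for S100a10 (SE 0.209), 0.041 for Stat3 (SE 0.0857), -0.13 for Serpina3n (SE 0.321) and -0.21 for A2m (SE 0.222). Injected blocks held 269 ± 77.9 FPKM of Gfap in vehicle mice (SD, n = 4) and 285 ± 173 FPKM in R55 mice (SD, n = 5), and these groups overlapped. In mice with 1-letter labels only the median of the 28 genes was -0.024 (13 above 0), in those with 2-letter labels 0.51 (28 above 0), and without mouse AA it was 0.087. The count of listed genes with an unadjusted p-value under 0.05 rested on single mice: it was 5 without vehicle mouse J or without R55 mouse P, and 4 without R33 mouse AD, whose libraries enter through the shared spread, while the adjusted count was 0 in each case. In these fits 1674, 1507 and 1660 of the 12976 tested genes passed the same threshold. In contralateral blocks alone the count was 4 (1490 of all tested genes), and Anxa1 had an unadjusted p-value of 0.0027 there (adjusted p = 0.366, limma). In mice with 2-letter labels vehicle is AH alone, so no count is given for them.

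R33, compared with the same vehicle mice, also gave no call among the listed genes, and its median was smaller than that of R55, though its Gfap and Lcn2 values were larger. Of the 28 genes, 0 were called (0% of tested genes called) and 0 of 28 had an unadjusted p-value under 0.05 (5.87% of tested genes), and with the blocks of a mouse modelled as correlated 292 of all tested genes did in place of 762. The median log2 fold change was 0.12, beside 0.018 for all tested genes, with 21 of 28 above 0. Marker lists in this contrast, with 0 genes called, differed in both directions. The median was 0.75 for choroid plexus and ependyma (5 of 5 above 0, 1 higher at an unadjusted p-value under 0.05). R33 mice K, N and O and vehicle mouse J had blocks high in these markers. Medians were 0.29 for oligodendrocytes (7 of 7) and 0.22 for neutrophils and monocytes (2 of 2). Fibroblasts and leptomeninges (8 of 8) and border macrophages (1 of 1) stood at 0.18. Homeostatic astrocytes stood at 0.10 (7 of 10, 2 at that threshold) and microglia at -0.019 (4 of 8). The median was -0.19 for endothelium (1 of 7), mural cells (0 of 6, 1 at that threshold) and oligodendrocyte precursors (0 of 3, 1 at that threshold). The part of these lists in the R33 values was not tested. Lcn2 had the largest value, 0.63 (SE 0.43, adjusted p = 0.85, limma), and Anxa1 the smallest p-value, at 0.45 (SE 0.264, adjusted p = 0.85). For Vim, S100a10, Stat3, Serpina3n and A2m the R33 values were 0.31 (SE 0.225), 0.098 (SE 0.214), -0.021 (SE 0.0879), -0.044 (SE 0.329) and 0.031 (SE 0.228). Hmox1 differed by 0.37, with a 95% interval from -0.51 to 1.26, and Gfap by 0.28, with an interval from -0.34 to 0.90. The median over the listed genes was 0.027 without mouse AD, -0.057 in mice with 1-letter labels and 0.39 in those with 2-letter labels. Lcn2 was at 0.57 in the former and 0.45 in the latter, where vehicle is AH alone.

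**Figure D3:**
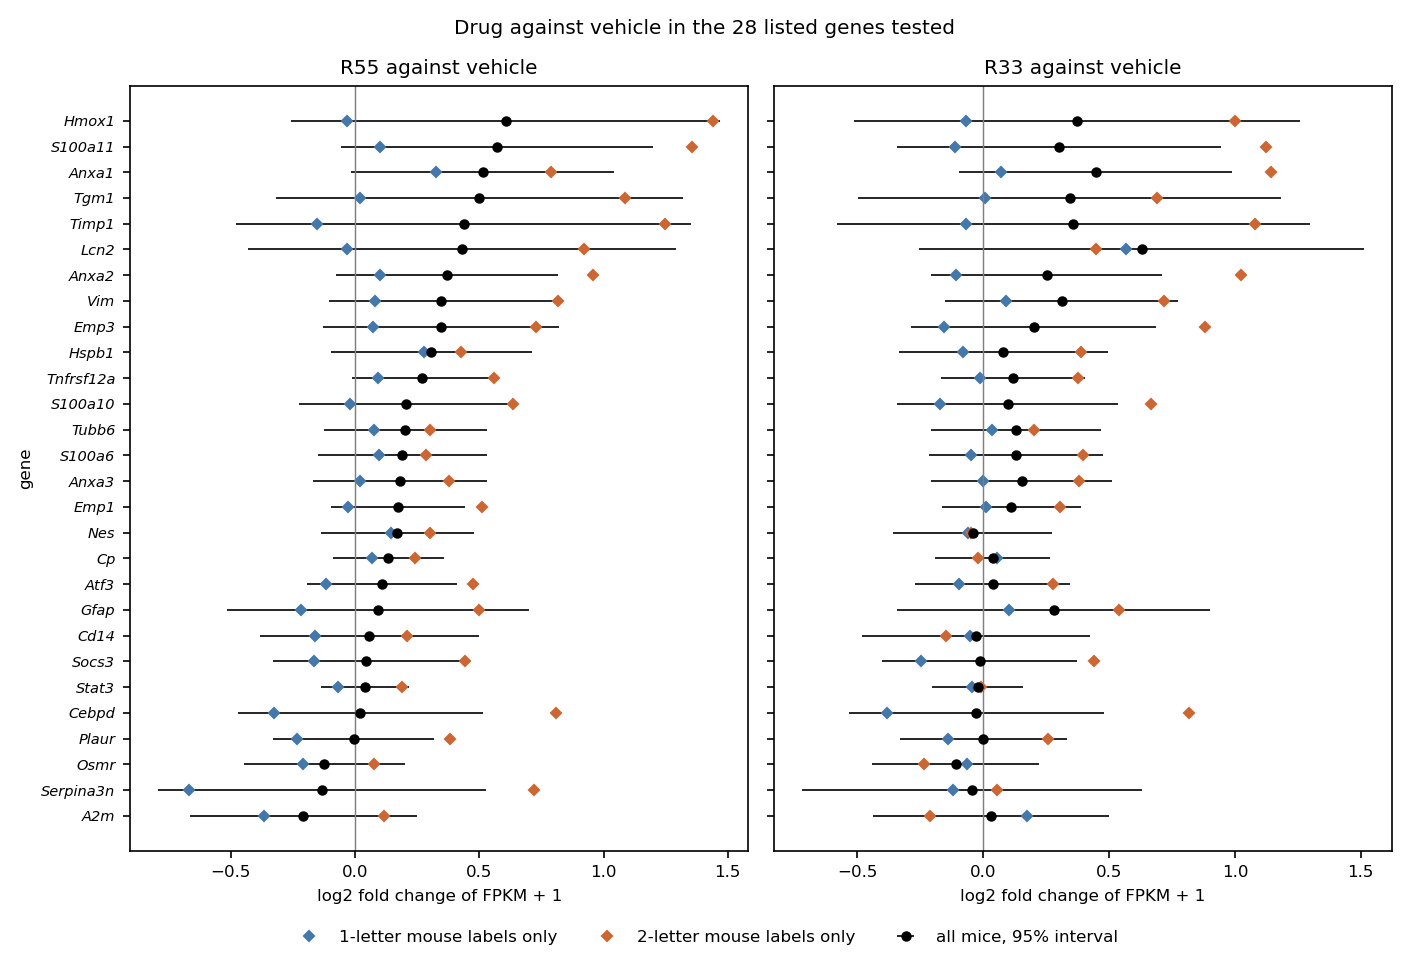
Log2 fold change of FPKM + 1 for the 28 listed genes tested, R55 (left) and R33 (right) against vehicle. Black points are the fit over all mice with its 95% interval, and diamonds the fits within mice with 1-letter (blue) or 2-letter (orange) labels. Every interval includes 0, and most orange diamonds lie to the right of the blue ones.

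R55 and R33, given at the same concentration and time, were compared directly as 1 pair. Between them 0 of 28 listed genes were called (0% of tested genes called, smallest adjusted p among listed genes 0.9998, limma), and 0 had an unadjusted p-value under 0.05 (1.15% of tested genes). The median difference, R55 minus R33, was 0.069, beside 0.0048 over all tested genes, and it was 0.018 in mice with 1-letter labels and 0.18 in those with 2-letter labels. Marker medians in this contrast, with 0 genes called, were -0.94 for choroid plexus and ependyma (0 of 5 above 0, 2 lower at an unadjusted p-value under 0.05), -0.12 for oligodendrocytes (0 of 7), 0.25 for fibroblasts and leptomeninges (7 of 8) and 0.11 for both microglia (8 of 8) and mural cells (6 of 6, 1 at that threshold), and their part was not tested. For Gfap it was -0.19 with a 95% interval from -0.78 to 0.40, and for Hmox1 0.23 with an interval from -0.60 to 1.07. The widths of these intervals exceed most of the differences between blocks described above, so a difference between the compounds of that size could have gone unseen.

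Whether a drug changed the response to the injection itself was asked by the interaction of treatment with hemisphere. The main fit does not pair the blocks of a mouse, so its p-values here may be too large and its unadjusted counts too low. For R55, 0 of 28 listed genes were called (0% of tested genes) and 0 had an unadjusted p-value under 0.05 (1.84% of tested genes), with a median of 0.0024 beside -0.032 over all tested genes. Marker medians there were -0.69 for oligodendrocytes (0 of 7 above 0), -0.46 for fibroblasts and leptomeninges (1 of 8), -0.19 for choroid plexus and ependyma (1 of 5), -0.13 for homeostatic astrocytes (4 of 10) and 0.067 for microglia (5 of 8). The oligodendrocyte sum went from 589 FPKM contralaterally to 1865 FPKM in vehicle mouse L and from 1155 to 1539 FPKM in J. It was lower in the injected block of vehicle mice M and AH and of R55 mice P, Q, R, AA and AB. For R33 the counts were also 0 of 28 at either threshold (0% and 0.378% of tested genes), with a median of 0.25 beside -0.012. In that interaction the marker medians were 0.77 for choroid plexus and ependyma (4 of 5 above 0), 0.28 for fibroblasts and leptomeninges (8 of 8), 0.17 for microglia (8 of 8) and -0.25 for endothelium (0 of 7), and their part was not tested. That R33 value rested on mouse AD, without which it was 0.019, and in mice with 1-letter labels the medians were -0.31 for R55 and -0.14 for R33. The smallest p-value for R55 was that of Nes and for R33 that of Cebpd, with adjusted p = 0.9994 and adjusted p = 0.9997 (limma).

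The label of the list names astrocytes, and the levels of its genes were set beside markers of the cells that a cortical block holds. Over the 27 libraries, which share mice and scaling, 504 of 528 pairs of listed genes had a positive Spearman correlation, with a median of 0.53. S100a11 and Anxa2 were the closest pair (0.91), Gfap was closest to Serpina3n (0.90), and Cd109 was farthest from the rest. The listed genes followed the summed microglial markers more closely than the homeostatic astrocyte markers in 30 of 33 cases, with median correlations of 0.60 and 0.30. These correlations pool mice with both kinds of label, by which the microglial sum in injected blocks was separated too. Correlations within each kind were not computed. Cd14 and Anxa3 followed the microglial sum at 0.92 each, and Gfap at 0.79. The neutrophil and monocyte sum gave nearly the same picture, above the astrocyte value for 29 of 33 genes with a median of 0.54, and the border macrophage sum was above it for 23 of 33 with a median of 0.42. Anxa1 (0.86) and S100a10 (0.61) followed the fibroblast and leptomeningeal sum more closely than the microglial one, and without both libraries of AD these were 0.83 and 0.52. Emp3 was closer to the border macrophage sum (0.83, and 0.79 without AD) than to the leptomeningeal one (0.74, and 0.69 without AD), and S100a11 followed both at 0.76 (0.73 and 0.72 without AD). The list is therefore named here by tissue injury as much as by astrocytes, since these blocks do not assign its RNA to a cell type.

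**Figure D4:**
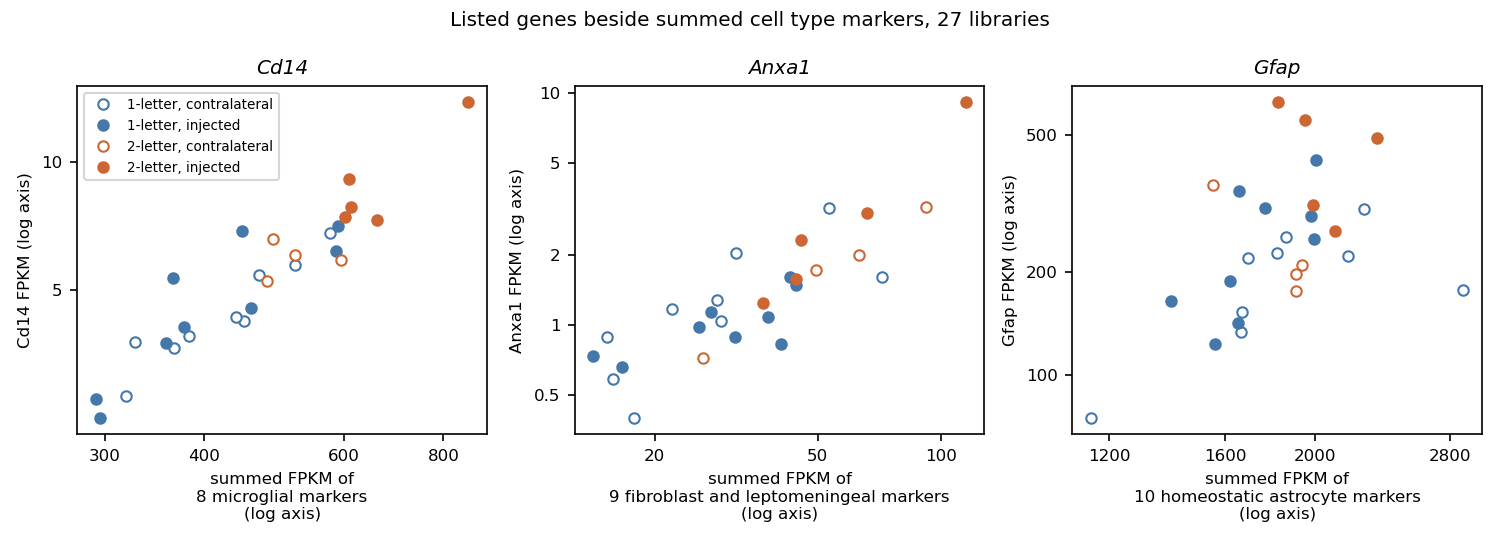
Level of Cd14, Anxa1 and Gfap in each of the 27 libraries (FPKM, log axes) against the summed FPKM of 8 microglial, 9 fibroblast and leptomeningeal, and 10 homeostatic astrocyte markers. Cd14 is higher where the microglial sum is higher and Anxa1 where the leptomeningeal sum is, while Gfap is more loosely related to the astrocyte markers (Spearman correlation 0.45). The highest point of each panel is the injected block of a mouse with a 2-letter label.

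The marker lists themselves differed in the same libraries. The 8 microglial markers, all detected, summed to 602 to 860 FPKM in the injected blocks of mice with 2-letter labels and 293 to 589 FPKM in those of mice with 1-letter labels, and contralaterally to 480 to 594 and 320 to 576 FPKM. The 10 neutrophil and monocyte markers, 2 of which passed the filter, were highest in the injected blocks of AD (15.6 FPKM) and AA (12.4 FPKM), and the 4 border macrophage markers in that of AD (8.28 FPKM). Endothelial markers were mostly lower in mice with 2-letter labels, at 38.0 to 57.4 FPKM against 55.4 to 101 FPKM in the injected blocks and 38.3 to 47.7 against 82.5 to 145 FPKM contralaterally. By treatment, the leptomeningeal sum in injected blocks was 16.6 to 42.8 FPKM after vehicle, 31.3 to 115 FPKM after R33 and 14.2 to 65.8 FPKM after R55. In contralateral blocks, where Anxa1 had its smallest p-value for R55, that sum was 15.8 to 71.9 FPKM after vehicle (median 22.0), 22.1 to 49.6 FPKM after R33 (median 28.7) and 15.3 to 91.9 FPKM after R55 (median 53.3). The part of these cells in the levels of the listed genes was not tested. Of the 10 homeostatic astrocyte markers, 3 were above 0 between the hemispheres, 0 were called, 0 had an unadjusted p-value under 0.05 (3.47% of tested genes), and their median was -0.023.

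Of the other genes of the same pathways, 0 were called. Of 21 further astrocyte reactivity genes, 17 were tested and 16 of these were above 0 between the hemispheres. Between the hemispheres 3 of the 17 were higher at an unadjusted p-value under 0.05 and 0 lower, where 3.47% of all tested genes passed in either direction, namely the sphingosine receptor S1pr3 (0.23, SE 0.0895), Aspg (0.27, SE 0.121) and Tm4sf1 (0.35, SE 0.165), with a list median of 0.12. After R55, where 8.45% of all tested genes passed, Sphk1 (0.35), Cxcl10 (0.85) and Gbp2 (0.54) were the 3 higher genes and Amigo2 (-0.42) was the 1 lower gene at that threshold. Of 24 genes of gp130, JAK and STAT3 signalling, 17 were tested. The nuclear cofactor gene Bcl3 was the only one of them with an unadjusted p-value under 0.05 between the hemispheres (0.40, SE 0.134, adjusted p = 0.9999, limma), where 3.47% of all tested genes passed. Of these 17, 10 were above 0 there with a median of 0.031, beside 0.16 to 0.49 for the 4 listed signalling genes. Those 4 were listed with this difference known, so nothing is read from the gap. Of 16 stress transcription factor and Nrf2 target genes, 14 were tested and 12 of these were above 0 between the hemispheres. At an unadjusted p-value under 0.05, where 3.47% of all tested genes passed, 4 were higher and 0 lower: the Nrf2 targets Txnrd1 (0.20, SE 0.0546) and Gclm (0.14, SE 0.0504) and the transcription factors Myc and Cebpb. Against vehicle, 4 of these 14 genes were higher and 0 lower after R55 (8.45% of all tested genes), and 3 higher and 0 lower after R33 (5.87%), at that threshold. Among them Nqo1, another Nrf2 target, had a log2 fold change of 0.42 for R33 against vehicle (SE 0.118, adjusted p = 0.834, limma). The 14 proteolysis and matrix genes, 8 of them tested, had a hemisphere median of -0.00072. Adamts1 (0.30) was the 1 gene of these 8 at an unadjusted p-value under 0.05 there (3.47% of all tested genes). In that list F3, tissue factor, and the metalloproteinase inhibitor gene Timp3 were the 2 of 8 genes higher at that threshold after each drug. Their values were 0.28 each after R55 (8.45% of all tested genes passed) and 0.23 and 0.24 after R33 (5.87%).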

How the data were processed

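Stranded mRNA libraries from cortical tissue blocks of individual mice were sequenced by the authors on an Illumina NextSeq instrument and aligned with HISAT2 to GRCm39, and the deposited table gives FPKM per gene symbol, with the counting tool and annotation not given in the sources used here. For each gene a constant was searched for that made every library a whole number of fragments within 0.01, and fragments, gene lengths and library totals were recovered from it. The share of whole values, 100.0% over genes where a constant was found, follows from that search. A gene whose counts share a divisor gets too few fragments. The table holds 5 further libraries that matched no sample label at hand and were not used here. The study states 6 mice per group, and those described here are the ones whose libraries matched a sample label.

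Groups were taken from the sample labels. The 6 contrasts (R55 or R33 against vehicle, R55 against R33, injected against contralateral, and both interactions with hemisphere) were fitted with limma 3.58.1 in R 4.3.3 on log2(FPKM + 1), with an intensity trend, over all 27 libraries and the 12976 genes averaging 1 FPKM or more, and p-values were adjusted by Benjamini-Hochberg over all of them. The script was tested on simulated data. Blocks of a mouse with the same label come from the same animal, and their deviations from the group means correlated at a mean of 0.394 over 13 pairs (-0.079 to 0.648). The main fit treats them as separate libraries, and a fit with the mouse as a block is among the alternatives (pseudocount, filter, scaling, voom, label series, hemisphere, length trend, each mouse left out). Printed p-values, SEs and intervals therefore measure the spread between libraries, 2 for most mice, and may be too small for the drug contrasts. For the hemisphere contrast and the interactions, which compare blocks within mice, they may be too large. Summaries used Python 3.11.15, pandas 2.3.3 and scipy 1.17.1, and gene positions are from GENCODE mouse release 39.

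Values in every library were given for the 6 most abundant listed genes, those on 1 side of 0 in at least 11 of 13 mice and those with an unadjusted p under 0.05 for a drug (none had), with drug contrasts printed for most of them. Tgm1, Timp1, Cd14, Anxa1 and S100a11 were added in more detail after their values were seen, as were ranges of further genes. At most 3 genes a pathway list were to be named by smallest p, and a few more are named. The genes and lists were chosen with earlier results of these data known. The comparison of label series and the omission of mice J, K, N and O were added after seeing the data.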

Additional observations from a re-analysis of the deposited data

Results flagged for a closer look

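Of 198 sets of 4 or 5 libraries (33 genes in 6 groups of treatment and block), 8 had a library that stood far from the others by Dixon's test at the 95% level, and chance flags about 1 in 20 groups. Mouse J accounted for 4 of them. In its injected block, the highest among vehicle mice, S100a10 was at 33.6 FPKM, Tnfrsf12a at 4.64 FPKM and A2m at 6.16 FPKM, and in its contralateral block Hspb1 was at 4.50 FPKM. The injected block of R33 mouse AD was high in S100a10 (78.9 FPKM) and in Tnfrsf12a (7.56 FPKM). The contralateral block of R55 mouse P was low in Tnfrsf12a (2.49 FPKM) and in Anxa3 (9.66 FPKM). Choroid plexus and ependymal markers summed to 1135 FPKM in the contralateral block of J and to 14.6 FPKM in its injected block, and the part of that tissue in these values was not tested.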

How the results depend on the processing

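No listed gene was called at an adjusted p-value under 0.05 (limma) in the drug contrasts or their interactions with hemisphere under any alternative tried. With the mouse as a replicate block the median log2 fold changes of the listed genes were 0.19 for R55, 0.11 for R33 and 0.28 between the hemispheres, and the paired fit changed no call of a listed gene. Without mice J, K, N and O, which have a library high in choroid plexus markers, 19 of all 33 listed genes were higher in the injected block in at least 7 of 9 mice, a difference the list was chosen on (8.45% of tested genes met this). Some named genes changed sign. In mice with 1-letter labels only, R55 against vehicle was -0.033 for Hmox1 and -0.22 for Gfap, and R33 against vehicle was -0.067 for Hmox1 and -0.11 for S100a11. In the injected block alone, Gfap was at -0.082 for R55 against vehicle and Hmox1 at -0.0076 for R55 against R33, and in the contralateral block alone Gfap was at 0.22 for R55 against R33. Leaving out 1 mouse at a time, Gfap ranged from -0.23 (without L) to 0.28 (without P) for R55, from -0.036 (without L) to 0.49 (without K) for R33 and from -0.43 (without AA) to 0.0020 (without P) for R55 against R33, where Hmox1 ranged from -0.14 (without AA) to 0.56 (without AD). Without AA, Gfap was at -0.14 for R55 against vehicle. The cause was not tested. With 4 or 5 mice per group, differences inside the printed intervals could not be detected, and genes with under about 20 fragments carry wide counting error.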
